A study of Drosophila melanogaster with 8 samples.

Results

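Nicotinic acetylcholine receptors of Drosophila are ligand-gated cation channels built from 5 subunits, and they answer acetylcholine, the main excitatory transmitter of the insect brain. The genome encodes 7 alpha subunits and 3 beta subunits, and all 10 genes were taken by symbol and matched to their FlyBase identifiers, as 10 of the 10669 genes and 13 of the 20177 transcript 3′ ends in the count tables. Alpha subunits carry a pair of neighbouring cysteines in the acetylcholine binding site, and beta subunits lack it. Several subunits are targets of insecticides: neonicotinoids act on receptors that hold nAChRalpha1, nAChRalpha2, nAChRbeta1 and nAChRbeta2, and spinosad acts through nAChRalpha6. The proteins sit in synaptic membranes, whereas their mRNAs can reside in the cell body, in neurites or at the synapse. The values below compare a fraction enriched in nerve endings with the whole head homogenate, which holds all of these places. Cell bodies and neurites were not measured apart.

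Adult fly heads, of genotype wt in the labels and of both sexes, received no treatment, and their RNA was profiled by 3′-seq, which reads the polyadenylated 3′-end of each transcript. One group was the synaptosome fraction, pinched-off nerve endings with attached postsynaptic membrane enriched on a Percoll gradient, and the other was input, the head homogenate that enters the fractionation. There were 4 libraries a group, called 1, 2, 3 and old after their columns, and the labels leave unsaid whether these are separate fly collections. The p-values therefore speak for the scatter among these libraries, and that scatter may be technical. A synaptosome fraction mixes endings of all neuron types and can hold other membranes, and fewer endings of a type cannot be told apart from less mRNA per ending.

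Sequencing depth was 7940909 to 16865581 counts per input library and 1029666 to 9397652 counts per synaptosome library, lowest in synaptosome 2 and 3. Of the 8159 genes with enough counts to be tested, 22.9%, 33.8%, 33.97% and 12.0% had no count in these synaptosome libraries, against 0.123% to 2.26% in input libraries, so a 0 was common in single synaptosome libraries. The 10 subunit genes together received 185 to 2888 counts per synaptosome library and 2180 to 3843 per input library. Subunit genes with a count numbered 7, 4, 4 and 5 in synaptosome libraries 1, 2, 3 and old, and 10, 9, 10 and 10 in the matching input libraries. Levels are in CPM, the field's depth-normalised count, taken here over the TMM-scaled library total. Since a transcript gives 1 end whatever its length, CPM values of different genes can be set side by side for their counted ends. Masked or unknown ends cannot be seen, and would lower the level of a gene.

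In the head homogenate the subunits fell into 7 mRNAs of moderate level and 3 of very low level. nAChRbeta1 (65.2 ± 25.3 CPM, mean ± SD, n = 4 here and below) and nAChRbeta2 (63.3 ± 23.4 CPM), which pair with alpha subunits in receptors of the central nervous system, had the highest means. nAChRalpha5 followed with 42.4 ± 10.6 CPM, ahead of nAChRalpha2 with 25.5 ± 7.25 CPM and nAChRbeta3 with 24.5 ± 17.2 CPM. Next came nAChRalpha4 with 15.6 ± 6.39 CPM and nAChRalpha7 with 12.3 ± 8.08 CPM, subunits known for roles in sleep and in the giant-fibre escape response. The lowest input means were those of nAChRalpha1 (1.94 ± 1.89 CPM), nAChRalpha6 (1.88 ± 1.76 CPM) and nAChRalpha3 (1.55 ± 1.80 CPM). Neighbours in this order had overlapping ranges, with the exception of nAChRalpha7 over nAChRalpha1, where the input ranges were apart. Among the tested genes, the input level of nAChRbeta1 stood at percentile 75.2, that of nAChRalpha2 at 49.6 and that of nAChRalpha6 at 1.36.

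**Figure D1:**
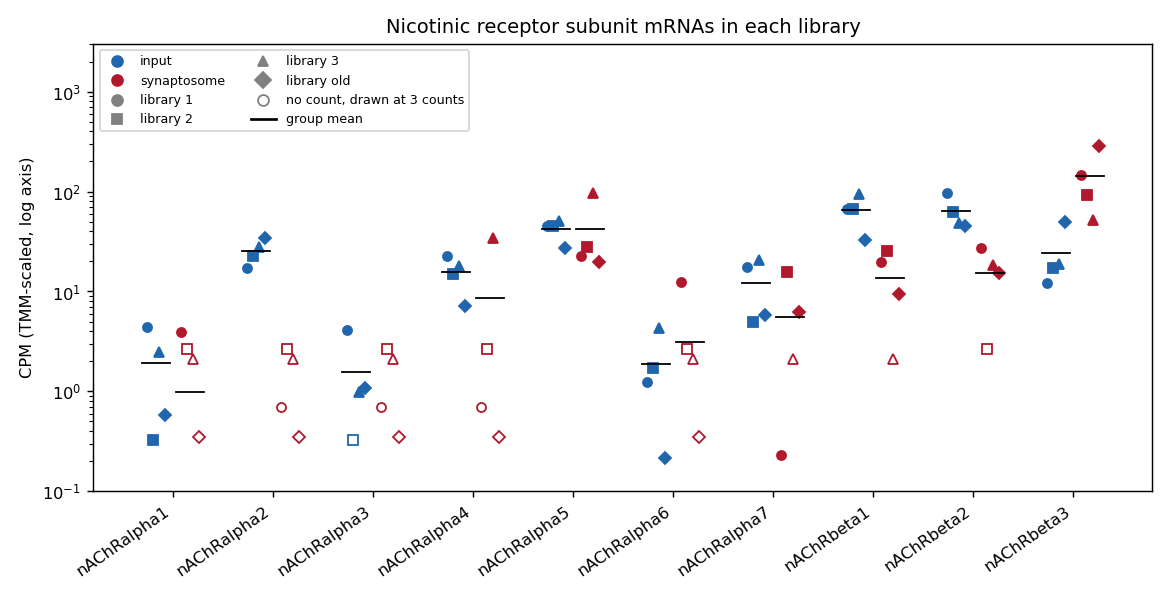
CPM of each subunit gene (log axis) in the 4 input libraries (blue) and the 4 synaptosome libraries (red), with black lines for group means and open symbols, drawn at 3 counts, for libraries with no count. nAChRbeta3 is the subunit whose synaptosome libraries (52.2 to 288 CPM) all lie above its input libraries (12.1 to 50.03 CPM), and nAChRalpha2 has only open symbols in synaptosomes.

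To ask which subunit mRNAs were higher or lower in synaptosomes than in the homogenate, the whole gene table was fitted with edgeR's quasi-likelihood test, with Benjamini-Hochberg adjustment over all tested genes and a threshold of 0.05. Of the 10 subunit genes, 8 had enough counts to be tested, 1 was higher (nAChRbeta3) and 1 was lower (nAChRalpha2). Over the table, 0.944% of tested genes were called higher and 4.13% lower. Log2 fold changes, synaptosome minus input throughout, were negative for 6 of the 8 tested subunits (75.0%) and for 62.3% of all tested genes, and their medians were −1.02 and −0.35. Without adjustment, 1 tested subunit was higher and 3 were lower at edgeR p under 0.05. Over the table, 1166 of the 8159 tested genes passed that threshold in either direction. Both calls lay close to the threshold, as did 366 of all 414 calls of the table, which had adjusted p-values over 0.04.

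nAChRbeta3 (FBgn0031261), the most divergent Drosophila subunit, was the subunit mRNA that rose. Synaptosome libraries 1, 2, 3 and old held 146, 92.9, 52.2 and 288 CPM of it, from 628, 106, 74 and 2455 counts. The corresponding input levels were 12.1, 17.2, 18.8 and 50.03 CPM, from 108, 159, 251 and 692 counts. Every synaptosome library was above every input library, an order seen in 2.99% of tested genes, but the lowest synaptosome value exceeded the highest input value only 1.04-fold. The means were 145 ± 103 and 24.5 ± 17.2 CPM, a 5.90-fold ratio, and the log2 fold change was 2.56 ± 0.65 (SE, edgeR adjusted p = 0.0490).

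The libraries named old held the highest nAChRbeta3 level of each group, so the groups were also compared without them. Libraries 1 to 3 gave 97.2 ± 47.3 CPM in synaptosomes against 16.1 ± 3.49 CPM in input (n = 3), a 6.05-fold ratio, and the old libraries alone gave a 5.75-fold ratio. Here the groups stood apart by more, since the lowest synaptosome value was 2.77-fold above the highest input value. With both old libraries left out of the edgeR fit, the log2 fold change was 2.597 (adjusted p = 0.0487). Leaving out any single library kept a positive log2 fold change, from 1.98 without synaptosome old to 3.17 without input old, but edgeR called nAChRbeta3 in 0 of these 8 fits (adjusted p 0.0694 to 0.130, unadjusted p 0.000775 to 0.0118).

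The nAChRbeta3 gene lies at 2L:545129-547096 on the plus strand of the dm6 genome, with 4 exons and 1 annotated transcript. At 1.968 kb it was the shortest of the subunit genes, the others spanning 5.72 to 92.9 kb. It lies wholly inside Ets21C (2L:544925-552923), a gene of the opposite strand for a stress-responsive transcription factor. The nearest known 3′-ends of these genes are 48 bases apart, and whether the authors' counting used strand is not given in the sources used here. Ets21C itself received 0 counts in all synaptosome libraries and 0, 5, 28 and 26 counts in input libraries 1, 2, 3 and old, fewer than nAChRbeta3 in each of the 8 libraries.

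The 5 tested genes whose log2 CPM followed that of nAChRbeta3 most closely over the 8 libraries were CG16704 (Pearson r = 0.984), ras (0.980), CG2604 (0.979), sktl (0.974) and Hn (0.967). These correlations describe libraries that share depth and group differences and carry no test. ras encodes inosine monophosphate dehydrogenase of guanine nucleotide synthesis, sktl a phosphatidylinositol phosphate kinase, and Hn phenylalanine hydroxylase. Each had a positive log2 fold change, from 0.86 for CG2604 to 1.67 for CG16704, and none was called (edgeR adjusted p 0.0721 to 0.264). The positive sign follows from the choice of genes by their likeness to nAChRbeta3.

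Markers of other cells moved between the same groups. Of a list of 5 cuticle and epidermis genes, 3 were tested and 2 rose, Cpr62Bc and Acp65Aa, and the summed level of the list was 102 to 360 CPM in synaptosome libraries and 16.8 to 25.2 CPM in input libraries. Of 8 glial genes, 1 rose, the GABA transporter gene Gat, with the list summing to 1827 to 4097 CPM in synaptosomes and 1926 to 2698 CPM in input. The part of these markers in the nAChRbeta3 result was not tested. Photoreceptor genes fell, 8 of 10, with summed levels of 2066 to 3042 CPM in synaptosomes and 18264 to 23354 CPM in input, as did the muscle genes Mlc2 and up, 2 of 6 (943 to 2368 against 2034 to 8831 CPM). Of 10 neuronal genes 0 were called (summed 93.3 to 462 CPM in synaptosomes, 216 to 967 CPM in input), and fne among them had no synaptosome count. The lists for fat body (5 tested), hemocytes (3 tested) and cholinergic neurons (2 tested) held 0 calls.

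**Figure D2:**
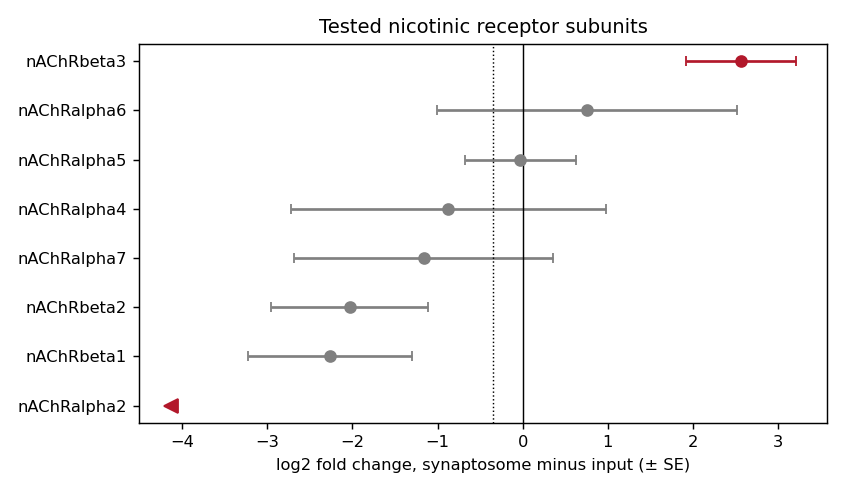
Log2 fold change, synaptosome minus input, of the 8 tested subunits, with bars for the standard error; called subunits are red, the triangle marks the bound for nAChRalpha2, and the dotted line is the median of all tested genes (−0.35). nAChRbeta3 at 2.56 lies to the right, and nAChRbeta1 and nAChRbeta2 lie at −2.26 and −2.03 without passing the adjusted threshold.

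nAChRalpha2 (FBgn0000039), a neuronal alpha subunit, was the subunit mRNA that fell. It had 0 counts in each of the 4 synaptosome libraries. The input levels, in the same order, were 17.3, 22.5, 27.9 and 34.2 CPM, from 154, 208, 372 and 473 counts. At the mean input level, 109, 29.1, 36.1 and 217 counts would have been met in synaptosome libraries 1, 2, 3 and old, each more than the floor of 3 counts used for a library without a count. In CPM that floor ranged from 0.352 in synaptosome old to 2.63 in synaptosome 2. Against its mean over the synaptosome libraries, nAChRalpha2 was at least 17.6-fold lower in synaptosomes (edgeR adjusted p = 0.0474). A lack of counts in all 4 synaptosome libraries was met in 3.17% of tested genes. Of the 4116 tested genes at or above the input level of nAChRalpha2, it was met in 9 (0.219%). That set includes far more abundant genes.

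The call on nAChRalpha2 held in 1 of the 8 edgeR fits that left out a library, that without synaptosome old (adjusted p = 0.0361), and the others gave adjusted p 0.0547 to 0.130 and unadjusted p 0.000326 to 0.00254. Without both old libraries the adjusted p was 0.0504, and with the replicate number as a block it was 0.0938 at gene level. The gene lies at 3R:24485428-24491147 on the plus strand, between nAChRalpha1 (3R:24393896-24457157) and nAChRbeta2 (3R:24509228-24515106), both on the minus strand, and the 3 genes span 121 kb. The span of nAChRalpha2 holds the microRNA gene mir-1017 on the same strand, which was not in the count table.

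nAChRbeta1 and nAChRbeta2, the most abundant subunit mRNAs of the homogenate, had lower synaptosome levels that did not pass the adjusted threshold. nAChRbeta1 (FBgn0000038, 3L:4429349-4435993, plus strand) had 19.6, 25.4, 0 and 9.49 CPM in synaptosome libraries 1, 2, 3 and old and 66.3, 66.6, 94.96 and 32.97 CPM in the matching input libraries. Every synaptosome CPM was below every input CPM under TMM, but over plain library totals synaptosome 2 (28.2 CPM) lay above input old (27.04 CPM). The input mean CPM was 4.79-fold higher, and the log2 fold change was −2.26 ± 0.96 (edgeR adjusted p = 0.296). nAChRbeta2 (FBgn0004118) had 27.5, 0, 18.4 and 15.2 CPM in synaptosome libraries 1, 2, 3 and old and 96.8, 62.0, 48.9 and 45.5 CPM in input. Its groups did not overlap under either scaling, the input mean was 4.14-fold higher, and the log2 fold change was −2.03 ± 0.92 (edgeR adjusted p = 0.340).

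Synaptosome values below all input values were met in 14.5% of tested genes, and in 3 subunits, nAChRalpha2, nAChRbeta1 and nAChRbeta2, of which nAChRbeta1 lost this order when library totals replaced TMM. Over all genes at or above these input levels a 0 was uncommon. Of the 2023 genes at or above the input level of nAChRbeta1, 3.26% had no count in synaptosome 3. Of the 2068 at or above that of nAChRbeta2, 3.48% had none in synaptosome 2. These sets include far more abundant genes, so they do not give how common a 0 is at these levels themselves. The fall of the photoreceptor markers named above went with these lower values, and its part in them was not tested.

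nAChRalpha5, nAChRalpha6 and nAChRalpha7 form the group of insect subunits that most resemble vertebrate alpha7, whose receptors can form from a single kind of subunit. nAChRalpha5 (FBgn0028875, 2L:14040170-14094401, plus strand) was, with nAChRbeta3, the other subunit with counts in all 8 libraries. It had 22.6, 28.0, 96.7 and 19.8 CPM in synaptosome libraries 1, 2, 3 and old and 45.7, 45.4, 51.3 and 27.0 CPM in input. The means were close, 41.8 ± 36.8 and 42.4 ± 10.6 CPM, with synaptosome 3 above all other libraries and the other synaptosome libraries overlapping input only at input old, and the log2 fold change was −0.03 ± 0.66 (edgeR adjusted p = 0.996). Its median in synaptosomes was 25.3 CPM against 45.6 CPM in input.

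nAChRalpha7 (FBgn0086778, X:19327075-19348447, minus strand) had 0.233, 15.8, 0 and 6.21 CPM in synaptosome libraries 1, 2, 3 and old, the first of these from 1 count, and 17.4, 4.97, 20.9 and 5.78 CPM in input. The ranges overlapped, and the log2 fold change was −1.16 ± 1.52 (edgeR adjusted p = 0.851). nAChRalpha6 (FBgn0032151, 2L:9793317-9886250, minus strand) was seen in synaptosome 1 alone, with 53 counts or 12.4 CPM. Its input libraries had 1.24, 1.73, 4.35 and 0.217 CPM, all below that library, and 3 synaptosome libraries had none. The log2 fold change of 0.75 ± 1.76 (edgeR adjusted p = 0.927) rested on this library. Without it no synaptosome count is left, and the fitted value of −6.94 depends on the prior count.

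nAChRalpha4 (FBgn0266347, 3L:23206669-23287448, plus strand) was likewise carried by a single synaptosome library. Library 3 held 49 counts (34.6 CPM), above all input values of 22.5, 14.9, 17.8 and 7.23 CPM, and the other synaptosome libraries held none. At the mean input level, libraries 1 and old would have held 66.9 and 133 counts. The log2 fold change was −0.87 ± 1.85 (edgeR adjusted p = 0.919), and −10.05 without synaptosome 3, a fitted value that depends on the prior count because no synaptosome count is then left.

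nAChRalpha1 and nAChRalpha3 had too few counts to be tested. nAChRalpha1 (FBgn0000036) had 17 counts in synaptosome 1 (3.96 CPM), 0 in the other synaptosome libraries, and 39, 3, 33 and 8 counts in input libraries 1, 2, 3 and old (4.38, 0.324, 2.48 and 0.578 CPM). nAChRalpha3 (FBgn0015519, X:8276200-8367169, minus strand) had 0 counts in all synaptosome libraries and 37, 0, 13 and 15 counts in input. At its mean input level only 1.77 to 13.3 counts would have been met per synaptosome library, and the main fit did not test for a difference. The 3′-end of nAChRalpha3 is overlapped on the opposite strand by CG1636, which had more counts than nAChRalpha3 in each input library (252 to 407).

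The make-up of the subunit mRNA pool differed between the fractions, a view that does not depend on how libraries were scaled. nAChRbeta3 made up 62.9%, 57.3%, 25.9% and 85.0% of all subunit counts in synaptosome libraries 1, 2, 3 and old, and 4.22%, 7.29%, 6.53% and 24.4% in input. The ranges did not overlap, though synaptosome 3 and input old came within a few percent of each other. nAChRbeta1 took 6.72% ± 6.92 of subunit counts in synaptosomes and 25.1% ± 7.22 in input, and nAChRbeta2 took 6.35% ± 5.20 and 24.8% ± 7.02. nAChRalpha5 took 20.2% ± 19.1 and 16.5% ± 2.62, and was the leading subunit of synaptosome 3 with 47.9%. Shares sum to a whole, so a higher share of one subunit lowers those of the others.

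Summed over all 10 genes, subunit mRNA reached 234 ± 75.5 CPM in synaptosomes and 254 ± 41.3 CPM in input, with overlapping ranges. Without nAChRbeta3, the other 9 genes summed to 89.0 ± 43.0 CPM (50.8 to 150) in synaptosomes and 230 ± 56.2 CPM (155 to 276) in input. These ranges were apart by a small margin under TMM and overlapped with CPM over plain library totals (46.1 to 155 CPM in synaptosomes, 127 to 309 CPM in input). The sum was formed after the nAChRbeta3 values were known and carries no test.

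**Figure D3:**
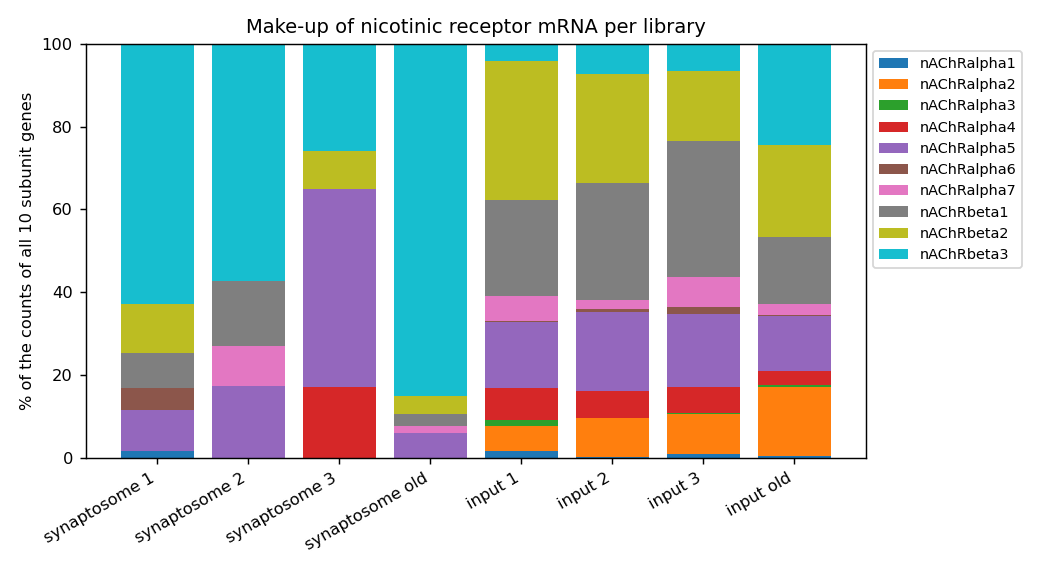
Share of each subunit gene in the counts of all 10 subunit genes (%, stacked bars) in the 4 synaptosome and 4 input libraries. nAChRbeta3 takes 25.9% to 85.0% of the bars of synaptosome libraries and 4.22% to 24.4% of those of input libraries. In input 1, 2 and 3 nAChRbeta1 and nAChRbeta2 each take a larger part than nAChRbeta3, and in input old they do not.

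Genes can end at several places, and counts per 3′-end were examined in the same way. The 10 genes had 13 counted ends, 7 genes with a single one and 3 genes (nAChRalpha4, nAChRbeta2, nAChRbeta3) with a pair, out of 52 known ends in the deposited list. Of the 13 ends, 8 were tested, 1 was higher and 1 was lower, where 0.732% and 6.46% of all tested ends were called. The ends called were the main end of nAChRbeta3 (log2 fold change 2.41 ± 0.65, edgeR adjusted p = 0.0439) and the sole end of nAChRalpha2 (adjusted p = 0.0390). The known end of nAChRalpha2 lies in its 3′ UTR at 3R:24491141-24491152. The count tables number the ends without coordinates, so that a counted end of a gene with several known ends could not be placed.

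The second end of nAChRbeta3 was used in a minority of its transcripts. It had 0, 0, 0 and 326 counts in synaptosome libraries 1, 2, 3 and old, and 2, 9, 0 and 55 counts in input. This was 13.3% of nAChRbeta3 counts in synaptosome old (exact Clopper-Pearson 95% interval 12.0% to 14.7%) and 7.95% in input old (6.04% to 10.2%), intervals that cover counting error only. In the numbered libraries it was 1.85% (0.225% to 6.53%) in input 1, 5.66% (2.62% to 10.5%) in input 2 and 0 elsewhere. Synaptosome 1, with 0 of 628 counts, allows a share of up to 0.586% by the same interval. The old libraries thus held most of this end's counts in both groups. nAChRbeta2 and nAChRalpha4 placed 93% to 100% of their counts at their main ends in every library with counts. No subunit had 2 tested ends, so a change in end usage could not be tested, whereas among all genes with several tested ends 79 of 2216 were called.

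The transmitter's own pathway showed no call beside the receptor. Of the 4 genes for making, loading, taking up and breaking down acetylcholine, 0 were called in either direction, with a median log2 fold change of −0.14. ChAT, the synthesizing enzyme, had 41.7, 95.5, 1.41 and 3.40 CPM in synaptosome libraries 1, 2, 3 and old and 32.7, 24.2, 53.0 and 20.6 CPM in input (0.11 ± 1.05, edgeR adjusted p = 0.986). VAChT, the vesicular transporter encoded within the ChAT locus, had 32.2, 0, 50.8 and 4.22 CPM against 24.2, 8.54, 30.3 and 4.55 CPM (0.37 ± 1.29, adjusted p = 0.955). Both genes thus varied more between synaptosome libraries than between the groups. Ace, the esterase that ends the signal, had 15.4, 92.0, 43.8 and 27.5 CPM against 52.8, 68.2, 83.0 and 30.1 CPM (−0.40 ± 0.63, adjusted p = 0.891). ChT, named for choline transport, had 1.17, 0, 0 and 0 CPM against 4.16, 8.21, 5.93 and 6.29 CPM, without overlap (−4.11 ± 1.59, adjusted p = 0.230).

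Receptor assembly and the related receptors were also without calls. Of 12 listed assembly and accessory genes 10 were matched, 9 were tested and 0 were called, with a median log2 fold change of −0.20. Among them were the chaperone RIC-3 (0.30 ± 0.75), the synaptic cleft proteins hig (0.04 ± 0.55) and Hasp (−0.76 ± 0.37), and the Ly-6 protein qvr (−0.20 ± 1.45). Of the muscarinic receptors, which couple to G proteins, 2 were tested and 0 called (mAChR-A −2.24 ± 1.32, mAChR-B −0.715 ± 1.005). Of the other Cys-loop channel subunits, relatives gated by GABA, glutamate, histamine or protons, 9 were tested, 0 were called, and the median log2 fold change was 0.21. Of the 24 tested genes of these 4 lists, 1 passed without adjustment (edgeR p under 0.05), ChT, as did 1166 of the 8159 tested genes of the table.

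**Figure D4:**
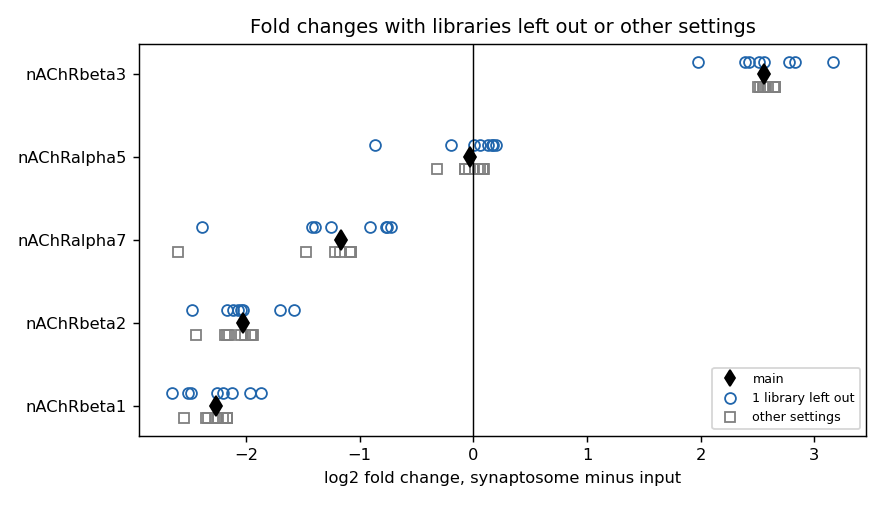
Log2 fold changes, synaptosome minus input, of 5 subunits with counts in at least 3 synaptosome libraries, with all libraries (black), with 1 library left out (blue circles) and under other settings (grey squares). nAChRbeta3 stays between 1.98 and 3.17, nAChRbeta1 and nAChRbeta2 stay below 0, and nAChRalpha5 falls on both sides of 0.

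Other settings left the sign of nAChRbeta3, nAChRbeta1 and nAChRbeta2 as it was, and changed the calls on nAChRbeta3 and nAChRalpha2. The log2 fold change of nAChRbeta3 ranged from 2.50 to 2.66 over 9 settings of scaling, filter, tool, depth and batch, of which 6 called it (adjusted p 0.00164 to 0.0929). nAChRalpha2 was called in 6 of the same 9 (adjusted p 8.02e-10 to 0.0938). The log2 fold change of nAChRbeta1 ranged from −2.65 to −1.87 and that of nAChRbeta2 from −2.48 to −1.58 over the 8 fits that left out a library, and neither was called in any of these fits or settings.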

How the data were processed

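The deposited counts are raw whole numbers, by gene and by 3′-end, not normalized and without molecular identifiers. To make them, the authors used fastp for trimming, STAR 2.6.1b for mapping and the dm6 genome (methods and processing notes), took out internal priming, and merged 3′ peaks into numbered clusters that had to lie near a known 3′-end. Masked or unknown ends cannot be seen. A deposited list gave coordinates of 52971 known 3′-ends. The authors' DESeq2 tables (mean signal, log2 fold change, standard error, p-values) were not used.

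Titles gave the groups. A column named old in each group matched no title beyond its group, and entered as a library with no number. Symbols (missing for 82 genes) and 1-based coordinates came from an Ensembl annotation of the dm6 assembly. The whole gene and end tables were tested with edgeR 4.0.16 in R 4.3.3 (filterByExpr, TMM, robust quasi-likelihood fit, no covariates, Benjamini-Hochberg threshold 0.05), and end usage with diffSpliceDGE. Adjusted p-values are from edgeR unless DESeq2 1.42.0 is named. Standard errors are the absolute log2 fold change over the square root of F. A gene without synaptosome counts is given as a bound from a floor of 3 counts per library, taken as the mean CPM over the synaptosome libraries. The script was tested on simulated counts. Alternatives were scaling, filters, DESeq2, a replicate block, a batch term, thinning to the smallest total and left-out libraries.

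All 10 subunit genes and their ends are named, with the 5 genes most like a called subunit that had counts in every library, any pathway gene called, and ChAT, VAChT, ChT and Ace. The members and lists were chosen with earlier results of these data known.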

Additional observations from a re-analysis of the deposited data

Results flagged for a closer look

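Of 28 groups of 4 values, the synaptosome groups of nAChRalpha2 and nAChRalpha3 were all 0 and could not be examined. Among the rest, 5 held a library whose gap to the nearest other, over the range of the group, passed Dixon's 95% limit. Chance passes about 1 in 20 groups of continuous values, a rate that does not hold for 4 of these 5, where any single library with counts beside 3 at 0 must pass. All 5 were high synaptosome libraries. Synaptosome 1 stood apart for nAChRalpha1 at 3.96 CPM, for nAChRalpha6 at 12.4 CPM and for ChT at 1.17 CPM, and in each case the other 3 synaptosome libraries had no count. Synaptosome 3 stood apart for nAChRalpha4 at 34.6 CPM, where the others had no count, and for nAChRalpha5 at 96.7 CPM, where the others had 19.8 to 28.0 CPM.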

How the results depend on the processing

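The calls on nAChRbeta3 and nAChRalpha2 depended on the setting, as did the number of calls over the whole table (77 genes higher and 337 lower, 81 ends higher and 715 lower, 79 genes with changed end usage). With no low-count filter, 50 genes were called higher and 50 lower, and 51 ends higher and 110 lower; the subunits called higher were 0 (nAChRbeta3 adjusted p = 0.0799). A mean count of at least 100 gave 60 genes lower and 0 subunits higher (adjusted p = 0.0575), and thinning gave 57 and 0 (adjusted p = 0.0929). DESeq2 called 281 genes higher and 639 lower, and 223 ends higher and 1265 lower. Median-of-ratios scaling gave 125 ends higher. Without both old libraries 139 genes were higher, and with a batch term 45 were higher and 50 lower, with 0 subunits lower in either (nAChRalpha2 adjusted p = 0.0504 and 0.0548). The paper's methods draw input from the homogenate that is then fractionated, but the labels do not say that equal numbers share a homogenate. Deviations of libraries 1, 2 and 3 correlated with those of the same number at 0.00255, 0.0394 and −0.0179. Those of old with old correlated at 0.25, the highest value of any synaptosome and input library. The main fit did not take the numbers as pairs, and whether they are pairs stays unsettled. With the replicate number as a block, 51 genes were higher and 66 lower, 298 ends were lower, 4 genes changed end usage, and 0 subunit genes were lower (nAChRalpha2 adjusted p = 0.0938), although the sole end of nAChRalpha2 stayed called in the table of ends (adjusted p = 0.0244), while nAChRbeta3 kept its call (2.50, adjusted p = 0.0345). Over the fits that left out a library, 0 to 182 genes were higher and 1 to 984 lower, 0 to 168 ends higher and 1 to 1956 lower, and 0 to 432 genes changed end usage; subunit genes and ends called higher were 0 in all 8, and those called lower 0 to 1. Calls over the table were 0 higher and 1 lower without input 1 or input 3.

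Signs changed for subunits that were never called. The log2 fold change of nAChRalpha5 (−0.03 with all libraries and TMM) was 0.088 with median-of-ratios scaling, 0.091 at a mean count of at least 100, 0.084 with DESeq2, 0.044 without both old libraries, 0.060 after thinning and −0.86 to 0.20 with a library left out. Its end was 0.012 with median-of-ratios scaling, 0.0093 with DESeq2 and −1.01 to 0.024 with a library left out. nAChRalpha6 was −3.01 with the block and −6.94 to 1.65 with a library left out, and its end −3.21 and −6.97 to 1.54, where the lowest values, without synaptosome 1, have no synaptosome count and depend on the prior count. Scaling moved the zero point: over the table the median was −0.26 under median-of-ratios scaling and −0.41 under library totals, where TMM gave −0.35. Summed over libraries, the ends of nAChRbeta3 held 90.0% and 9.99% of its synaptosome counts. The cause of these changes was not tested. Depth limits what can be said of nAChRalpha1, nAChRalpha3 and nAChRalpha6, which had 17, 0 and 53 synaptosome counts in all.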
